A study of Mus musculus with 42 samples.

Results

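Purkinje cells send the output of the cerebellar cortex to the deep nuclei and inhibit their targets with GABA. In the weeks after birth they extend a flat dendritic tree, shed surplus climbing fibre inputs and acquire the fast, regular firing of the adult. The comparison described here covers the last part of that course, from postnatal day 14 (P14) to P56, in cells sorted by hand. All columns labelled as Purkinje cells at P14 (3 arrays) or at P56 (4 arrays) were taken, 7 of the 42 columns of the series.

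All animals were CB6-Tg(Gad1-EGFP)G42Zjh/J (G42) mice, Gad67-GFP bac-transgenic animals in which the Gad1 gene, encoding the GABA-synthesising enzyme GAD67, drives green fluorescent protein. Both ages carried this transgene, and every sample was labelled male, cerebellum and Purkinje cells. The mice lived in a normal light-dark cycle. Slices were held in AP5, CNQX and TTX, which block glutamate receptors and sodium channels, and loosened with protease and trituration, so both ages also share that handling. Fluorescence and soma size decided which cells were picked. The labels call the columns biological replicates, and do not say how many animals were pooled for each.

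Expression was measured on Affymetrix MOE430.2 arrays, and values are on the log2 scale, where a difference of 1 is a 2-fold change. In the 7 arrays they ran from 3.98 to 14.29. Array medians lay between 6.05 and 6.09 at P14 and between 5.91 and 6.03 at P56, and 90th percentiles between 9.08 and 9.18 at P14 and between 9.13 and 9.49 at P56. The medians did not overlap between the ages, while the 90th percentile of P56 replicate 2 lay within the P14 range. Counts under centring and with the 90th percentile as covariate are given with the main count. Values near 4 or 5 are at the bottom of the scale, so folds of genes that sat there at one age are uncertain. A change in RNA per cell and a change in the sorted cells cannot be told apart in bulk samples.

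Purkinje cell markers were high in every array of both ages. Pcp2, a Purkinje-specific regulator of G protein signalling, read 13.47, 13.66 and 13.4 at P14 and 13.39, 13.21, 13.48 and 13.48 at P56. The calcium buffer Calb1 read 13.53 to 13.62 at P14 and 13.48 to 13.56 at P56. Over 16 measured Purkinje markers the mean level per array was 12.28 to 12.38 at P14 and 12.15 to 12.31 at P56, and 0 of the 16 were called changed. Gad1 itself read 12.12 to 12.28 at P14 and 12.39 to 12.76 at P56, and Kit, a marker of molecular layer interneurons, read 5.1 to 6.09 and 5.26 to 5.49.

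Most markers of other cells were low, and 7 of 90 had a mean above 9 at either age. These were the glial genes Hopx (12.35 at P14 and 11.66 at P56), Gpr37l1 (11.01 and 11.17) and Sparcl1 (10.9 and 10.81), the interneuron marker Prkcd (10.46 and 9.3), the oligodendrocyte genes Ugt8a (10.45 and 9.93) and Olig1, and the precursor gene Lhfpl3. By list, the 12 interneuron markers averaged 5.8 to 6.0 per array at P14 and 5.83 to 6.04 at P56, the 12 granule cell markers 6.23 to 6.32 and 6.03 to 6.39, the 7 Golgi and unipolar brush cell markers 6.05 to 6.12 and 5.92 to 6.19, and the 10 microglial markers 5.88 to 5.95 and 5.6 to 5.92. The 13 endothelial and mural markers averaged 6.21 to 6.32 and 5.9 to 6.26, the 5 red blood cell markers 5.47 to 5.65 and 5.35 to 5.64, the 12 oligodendrocyte markers 6.85 to 6.98 and 6.62 to 6.85, and the 5 precursor markers 6.26 to 6.45 and 6.3 to 6.54. The 14 astrocyte and Bergmann glia markers averaged 7.23 to 7.35 at P14 and 7.09 to 7.7 at P56. Their highest array was P56 replicate 3, where the astrocyte gap junction gene Gja1 read 7.62 against 4.58, 5.01 and 5.43 in the other P56 arrays. 1 marker of all these lists was called, the precursor marker Lhfpl3, higher by 1.31 (SE 0.39).

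The sex labels and the sex-linked genes did not match in part of the P56 group. Xist, the RNA that coats the inactive X chromosome of females, read 6.47, 6.55 and 6.59 at P14, 7.68 and 7.6 in P56 replicates 2 and 3, and 10.71 and 10.72 in P56 replicates 1 and 4. The Y-linked gene Eif2s3y read 8.44 to 9.02 at P14, 7.91 and 8.78 in P56 replicates 2 and 3, and 4.29 and 4.28 in replicates 1 and 4. Other Purkinje arrays labelled male also had Xist above 10 and Eif2s3y under 5. They were P3 and P7 replicates 2 and 3, P21 replicates 2 to 4, P28 replicates 3 and 4 and P35 replicates 1 and 2. The count of called genes is therefore also given without the 2 P56 arrays, an alternative chosen after the data were seen.

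**Figure D1:**
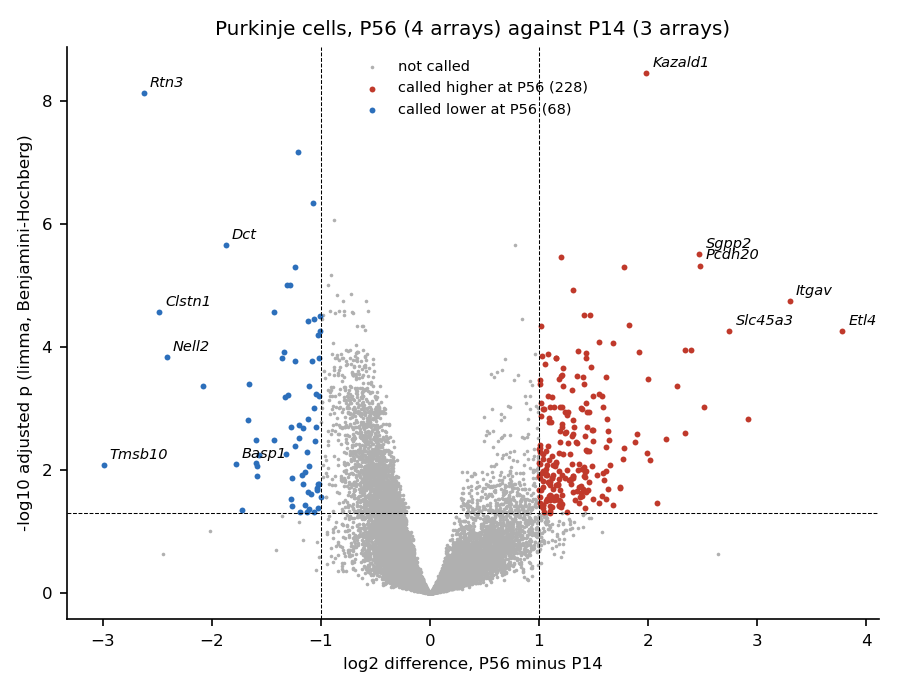
Each point is 1 of 17478 genes. The horizontal axis is the log2 difference P56 minus P14 and the vertical axis is the negative log10 of limma's adjusted p. Dashed lines mark an adjusted p of 0.05 and a log2 difference of 1 in either direction, and 228 genes in the upper right and 68 in the upper left pass both.

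Of 17478 genes tested, 296 (1.69%) changed between P14 and P56, 228 upward (1.3%) and 68 downward (0.389%). A gene was called changed when limma's Benjamini-Hochberg adjusted p was under 0.05 and its log2 difference was at least 1. The median difference of all genes was -0.07. The split between upward and downward calls depended on the threshold and the scaling. At the same adjusted p with no minimum difference, 603 genes were higher and 1861 lower, and with a minimum of 0.6 the numbers were 483 and 585. Centring each array on its median moved the median of all genes to 0.045 and gave 333 higher and 37 lower. A covariate for the arrays' 90th percentiles gave 125 and 91. Single arrays also moved the count: without P14 replicate 3 it was 186, and without P56 replicates 1 and 4, the arrays with high Xist, it was 141 (82 higher and 59 lower), of which 107 were among the 296.

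The genes that fell included a group of growth and cytoskeletal proteins of young neurons. Tmsb10, thymosin beta 10, which binds actin monomers, read 11.07, 10.72 and 11.3 at P14 and 9.1, 8.31, 8.2 and 6.55 at P56. Its difference of -2.99 (SE 0.76, limma adjusted p = 0.00838) is a 7.97-fold decrease. All 4 P56 arrays were below all 3 P14 arrays, as was so for 21% of all genes (31.8% did not overlap in either direction, 10.8% being higher at P56). The largest differences were named only where the arrays did not overlap, so that separation was fixed for Tmsb10 by the choice. Basp1, a membrane protein of growth cones, read 11.26, 11.36 and 11.23 at P14 and 9.91, 9.55, 8.84 and 9.71 at P56, and fell by 1.78 (SE 0.45, limma adjusted p = 0.00793). Dpysl3, a collapsin response mediator protein that acts on actin and microtubules in growth cones, read 7.52, 7.64 and 8.09 and then 6.09, 5.9, 5.5 and 6.86, a decrease of 1.66 (SE 0.35). The beta-tubulin Tubb2b read 7.63, 7.76 and 7.39 and then 6.02, 4.91, 7.04 and 5.51, so its P56 replicate 3 lay just below the lowest P14 array.

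These 4 genes belong to a list of 30 genes of neurite growth and immature neurons, all measured. 6 of the 30 fell and 0 rose, against 0.389% and 1.3% of all genes, and the list's median was -0.38 beside -0.07 for all genes. The other 2 that fell were Enc1 (-1.04) and Tubb3 (-1.0), named here after their values were seen. The growth cone protein Gap43 (-0.52, adjusted p = 0.0527) and the microtubule protein Dcx (0.12, adjusted p = 0.826) did not pass the test, and Gap43 read 5.63 on average at P14, near the bottom of the scale. Stmn1, a tubulin-binding protein, had a difference of 0.52 (adjusted p = 0.0606). In the 25 tubulins and microtubule proteins listed without regard to age, 0 were called and the median was -0.07. The count in the neurite growth list was 3 without P14 replicate 1, without P14 replicate 3, with median centring or at an adjusted p under 0.01. It was 4 without P56 replicate 4, without P56 replicates 1 and 4 or with the mean of probe sets, and the brightest probe set in the 7 arrays gave 4 lower and 1 higher.

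Further large decreases were those of Rtn3, Clstn1 and Stx1a. Rtn3, a reticulon that shapes the endoplasmic reticulum, read 9.83, 9.66 and 9.3 at P14 and 6.42, 7.14, 7.35 and 6.97 at P56, a 6.18-fold decrease (-2.63, SE 0.23, limma adjusted p = 7.61e-09). Clstn1, calsyntenin 1, which links vesicles to kinesin, read 8.66, 8.48 and 8.48 and then 6.04, 6.32, 5.85 and 6.01, a decrease of 2.48 (SE 0.35). Stx1a, a SNARE protein of the presynaptic membrane, read 8.39, 8.79 and 8.46 and then 6.76, 6.63, 6.89 and 7.27. For each of these genes the P14 and P56 arrays did not overlap, which the choice of the largest differences required. All P56 arrays lay below all P14 arrays for 21% of all genes. Among 44 synaptic vesicle and release genes Stx1a was the 1 that fell, and Sypl, a synaptophysin-like vesicle protein, was the 1 that rose, by 1.55 (SE 0.24). The list's median was 0.02.

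Nell2, a secreted glycoprotein of neurons, fell by 2.41 (SE 0.39) from 9.79, 8.78 and 9.55 to 7.03, 6.87, 6.86 and 7.08, while its other probe set rose by 1.0. Dct, dopachrome tautomerase, known from melanin synthesis, fell by 1.87 (SE 0.22) from 9.62, 9.34 and 9.08 to 7.12, 7.65, 7.51 and 7.62. Hdc, the histamine-synthesising enzyme, fell by 1.58 (SE 0.43), with 9.85 to 10.43 at P14 and 8.22 to 9.13 at P56. Fxyd7, a regulator of the sodium pump, fell by 1.59 (SE 0.4), and Tsks (-2.08), the esterase gene Iah1 (-1.60), Fam71e1 (-1.59) and Gp1bb (-1.57) completed the 15.

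**Figure D2:**
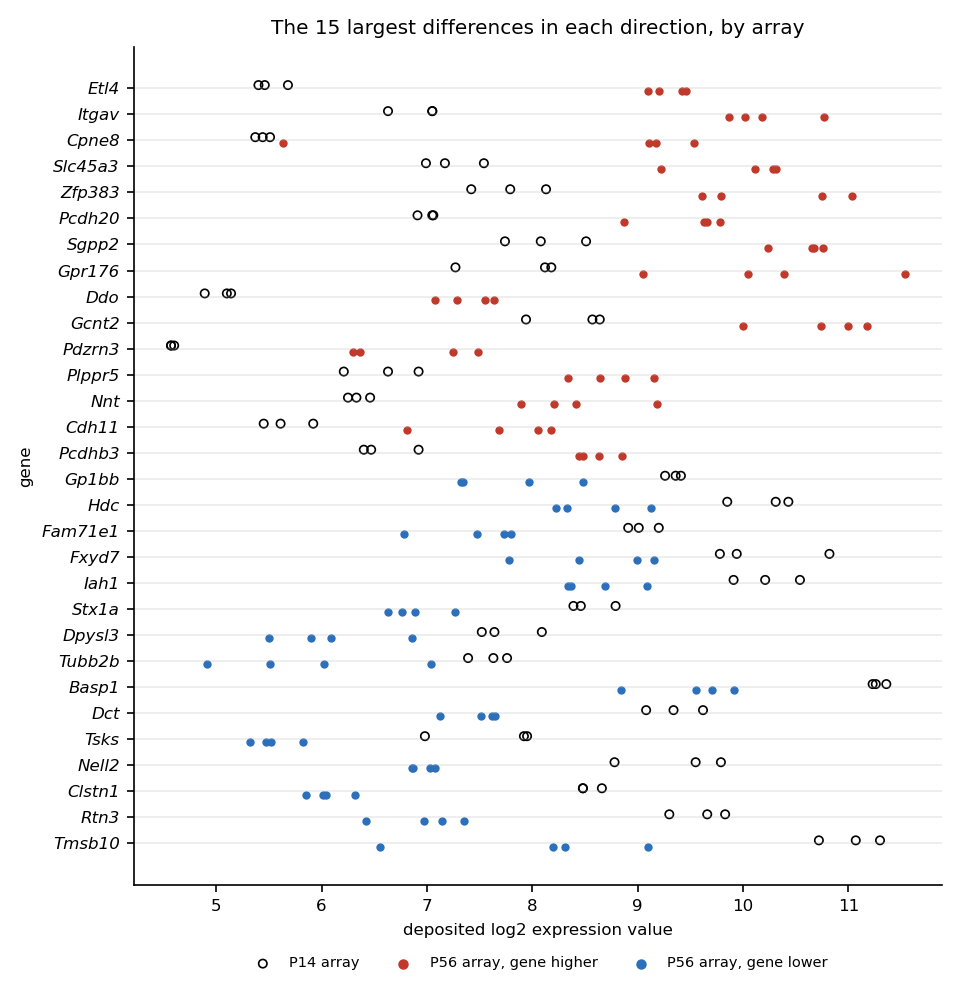
Deposited log2 values (horizontal axis) of the leading genes, the 15 largest called increases and the 15 largest decreases, 1 row per gene. Open circles are the 3 P14 arrays and filled circles the 4 P56 arrays. In each row the ages do not overlap, as the choice of these genes required. Cpne8 shows 1 P56 array at 5.63, close to its P14 arrays.

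The largest increases included the adhesion genes Pcdh20, Cdh11 and Itgav. Pcdh20, a protocadherin, read 6.91, 7.06 and 7.05 at P14 and 9.63, 8.87, 9.66 and 9.78 at P56, a 5.56-fold increase (2.48, SE 0.3, limma adjusted p = 4.79e-06). Cdh11, a classical type II cadherin, read 5.61, 5.92 and 5.45 and then 8.18, 6.81, 7.68 and 8.05, an increase of 2.02 (SE 0.5, limma adjusted p = 0.0068). Itgav, the integrin alpha V subunit that binds matrix proteins, read 7.05, 6.63 and 7.05 and then 9.87, 10.02, 10.77 and 10.18, a 9.84-fold increase (3.30, SE 0.44). Every P56 array exceeded every P14 array for these 3 genes, as was so for 10.8% of all genes. The choice of the leading genes required this separation.

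4 of 30 cadherins and non-clustered protocadherins rose and 0 fell, beside 1.3% and 0.389% of all genes. Besides Pcdh20 and Cdh11 these were the protocadherin Pcdh7, which rose by 1.5 (SE 0.32), and the giant cadherin Fat3, which rose by 1.39 (SE 0.28). Without P56 replicates 1 and 4 the count was 2. The list's median was -0.03, beside -0.07 for all genes. 2 of 24 genes of the L1 family, contactins and axonal domains rose: the contactin Cntn3 by 1.99 (SE 0.48), from 7.81 to 8.41 at P14 to 10.06 to 10.29 at P56, and Cntnap5a by 1.14 (SE 0.22). The clustered protocadherin Pcdhb3 rose by 2.0 (SE 0.35), from 6.92, 6.4 and 6.47 to 8.85, 8.48, 8.63 and 8.44. Of 28 semaphorins, plexins and neuropilins 1 rose, Sema7a, by 1.12 (SE 0.31). Its ages overlapped, with P56 replicate 4 at 9.86 beside P14 replicate 2 at 9.95. The ephrin, netrin and Slit genes had 0 of 35 called and a median of -0.26.

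Promoters are shown for 2 growth genes that fell and 2 adhesion genes that rose, so that the sequence before the start of genes moving in opposite directions can be compared. They are the 250 bases before the RefSeq gene start in GRCm38.p6, written on the gene's strand, at chr6:72958749-72958998 (minus strand) for Tmsb10, chr15:25413765-25414014 (minus strand) for Basp1, chr14:88471397-88471646 (minus strand) for Pcdh20 and chr2:83724147-83724396 (plus strand) for Itgav. Capitals mark each match, on either strand, to the TATA box (TATAAA), the GC box (GGGCGG), the CCAAT box, the E-box motif CACGTG or the cAMP response element, which reads TGACGTCA.
Tmsb10: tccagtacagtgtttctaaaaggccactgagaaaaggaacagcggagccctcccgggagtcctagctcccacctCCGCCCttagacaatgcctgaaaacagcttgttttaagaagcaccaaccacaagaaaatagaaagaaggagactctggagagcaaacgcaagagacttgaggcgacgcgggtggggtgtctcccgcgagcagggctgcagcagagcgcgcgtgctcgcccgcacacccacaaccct
Basp1: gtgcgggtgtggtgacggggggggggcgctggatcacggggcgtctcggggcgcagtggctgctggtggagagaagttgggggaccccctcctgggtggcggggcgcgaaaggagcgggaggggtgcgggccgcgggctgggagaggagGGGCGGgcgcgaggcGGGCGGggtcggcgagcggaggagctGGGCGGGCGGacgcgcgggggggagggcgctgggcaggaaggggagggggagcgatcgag
Pcdh20: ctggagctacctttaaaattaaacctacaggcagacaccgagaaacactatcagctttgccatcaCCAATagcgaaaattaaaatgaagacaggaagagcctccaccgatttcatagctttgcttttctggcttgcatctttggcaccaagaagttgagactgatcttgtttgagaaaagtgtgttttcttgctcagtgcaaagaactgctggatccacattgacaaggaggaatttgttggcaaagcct
Itgav: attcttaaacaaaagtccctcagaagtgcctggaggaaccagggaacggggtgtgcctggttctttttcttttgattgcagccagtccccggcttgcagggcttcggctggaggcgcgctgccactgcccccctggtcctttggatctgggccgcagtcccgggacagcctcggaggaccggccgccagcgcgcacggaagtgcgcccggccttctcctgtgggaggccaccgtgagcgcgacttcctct
The Basp1 promoter held 4 matches to GGGCGG, 2 of them overlapping, Tmsb10 had 1 and Pcdh20 and Itgav 0, while Pcdh20 had the only match to CCAAT in these 4 windows. They held 14, 30, 3 and 18 CG dinucleotides in the order printed.

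With 50 bases after the start added to each window, 182 of the 228 genes called higher, 52 of the 68 called lower and 13884 of all 17478 genes had an entry. GGGCGG stood in 64.3% of the higher, 69.2% of the lower and 55.3% of all genes' promoters. TATAAA stood in 7.7%, 23.1% and 9.4%, CCAAT in 33.5%, 28.8% and 38.0%, CACGTG in 11.5%, 7.7% and 9.1%, and TGACGTCA in 3.3%, 1.9% and 2.7%. Median CG dinucleotide counts were 19.0, 19.5 and 17.0. The shares were not tested, and a match is a description of letters and not of binding.

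The other leading increases were of mixed function. Etl4 showed the largest difference, 3.78 (SE 0.56, limma adjusted p = 5.59e-05), from 5.46, 5.68 and 5.4 to 9.1, 9.46, 9.42 and 9.2. Sgpp2, sphingosine-1-phosphate phosphatase 2, read 8.08, 8.51 and 7.74 and then 10.24, 10.65, 10.76 and 10.67, a 5.55-fold increase (2.47, SE 0.29). Gpr176, an orphan G protein-coupled receptor, read 8.18, 7.27 and 8.12 and then 11.54, 9.05, 10.05 and 10.39. Cpne8, a calcium-dependent membrane-binding copine, read 5.37 to 5.51 at P14 and 9.11, 9.17, 5.63 and 9.53 at P56, so its 2.92 (SE 0.61) rested on 3 of 4 arrays.

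Slc45a3, a member of a sugar transporter family, rose by 2.75 (SE 0.41), the zinc finger gene Zfp383 by 2.51 (SE 0.49) and the glycosyltransferase gene Gcnt2 by 2.34 (SE 0.51). Ddo, D-aspartate oxidase, rose by 2.34 (SE 0.36), from 4.89 to 5.14 at P14, near the bottom of the scale, to 7.08 to 7.64. The ubiquitin ligase gene Pdzrn3 rose by 2.27, the lipid phosphatase-related gene Plppr5 by 2.16 and the mitochondrial transhydrogenase gene Nnt by 2.08. Nnt had the weakest test of the 15 (SE 0.67, limma adjusted p = 0.0347).

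**Figure D3:**
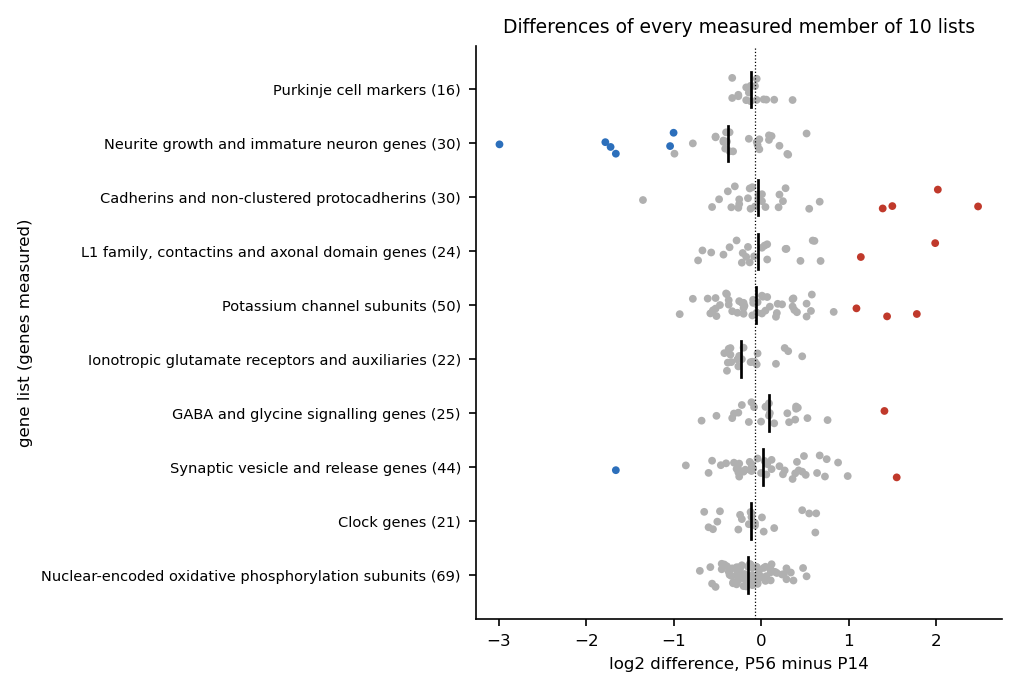
Log2 difference P56 minus P14 (horizontal axis) of every measured member of 10 gene lists, 1 point per gene. Red points were called higher, blue points lower and grey points neither, black bars are list medians and the dotted line is the median of all genes, -0.07. The neurite growth list has its median at -0.38 and the Purkinje markers lie between -0.33 and 0.36.

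Ion channel and receptor genes were called in the potassium channel list and the GABA and glycine list, and in none of the other lists given here. 3 of 50 potassium channel subunits rose, beside 1.3% of all genes: Kcng4, a modifier of Kv2 channels, from 8.2, 8.2 and 7.44 to 9.86, 10.12, 9.42 and 9.51 (1.78, SE 0.42), the G protein-gated channel Kcnj3 by 1.44 (SE 0.31), and the Kv4 partner Kcnip1 by 1.09 (SE 0.33). This count was 1 with the mean of probe sets and 2 without P14 replicate 1, P14 replicate 3, P56 replicate 1 or P56 replicate 4. Of 12 sodium channel subunits 0 were called (median 0.24, 9 without overlap of the arrays, beside 31.8% of all genes). Of 19 calcium channel subunits 0 were called (median -0.11). The HCN pacemaker channels had 0 of 3 called and a median of -0.42, with Hcn3 at -0.79 (limma adjusted p = 0.00739), below the 2-fold threshold. Of 25 GABA and glycine signalling genes 1 rose, Gabra4, the GABA-A receptor alpha 4 subunit, from 6.37, 6.48 and 6.56 to 7.83, 7.93, 7.83 and 7.93 (1.41, SE 0.2, limma adjusted p = 3.03e-05). Of 22 ionotropic glutamate receptor genes 0 were called, with a median of -0.23.

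Stim1, Slc8a1 and Camk4, 3 genes of calcium handling, changed. Stim1, the calcium sensor of the endoplasmic reticulum, fell by 1.12 (SE 0.16) from 9.6, 9.37 and 9.32 to 8.38, 8.76, 8.31 and 7.8. Slc8a1, the sodium-calcium exchanger NCX1, rose by 1.05 (SE 0.36, limma adjusted p = 0.0489), with P56 replicate 2 at 8.57 beside P14 arrays of 7.93 to 8.49. Camk4, a nuclear calcium and calmodulin-dependent kinase, fell by 1.32 (SE 0.32), from 10.12, 9.69 and 10.13 to 8.91, 8.56, 8.82 and 8.35. They were the only called members of their 3 lists, of 34, 24 and 29 genes in that order, beside 1.69% of all genes called. Camk4 stands in the list of postsynaptic scaffold genes.

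Regulators of chromatin and RNA showed a decrease of Dnmt3a, a de novo DNA methyltransferase, from 9.5, 9.4 and 9.49 to 8.19, 7.46, 8.44 and 8.45 (-1.33, SE 0.25). Smarca1, a chromatin remodeler, rose by 1.46 (SE 0.35). Ptbp1, a splicing regulator that represses neuronal exons, fell by 1.20 (SE 0.25). Their lists held 46 chromatin genes, 1 called higher and 1 lower, and 45 RNA-binding genes, 1 called lower, beside 1.69% of all genes called. The lists' medians were -0.05 and 0.13. Ebf2, a transcription factor found in zebrin-negative Purkinje cells, rose by 1.18 (SE 0.34), the 1 call among 51 lineage and neuronal transcription factors and among 11 zebrin stripe genes. Among 15 thyroid hormone genes, the malic enzyme gene Me1 fell by 1.31 (SE 0.24) and Bcl6 rose by 1.01 (SE 0.18).

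Single members changed in several further lists. Dusp1, a phosphatase of the immediate early class, rose by 1.65 (SE 0.42) and Hspa1b, a heat shock protein, by 1.16 (SE 0.36). Abca1, the cholesterol exporter, rose by 1.48 (SE 0.25), the secretory chaperone gene Scg5 by 1.19 (SE 0.33) and the G protein regulator Rgs10 by 1.03 (SE 0.34). The centromere histone gene Cenpa rose by 1.46 (SE 0.21) and the ataxia gene Ppp2r2b by 1.0 (SE 0.24). For Dusp1 and Scg5 the ages overlapped. Dusp1 read 6.01 in P56 replicate 2 beside 6.15 in P14 replicate 1. Scg5 read 9.77 in P56 replicate 3 beside 10.03 in P14 replicate 2. Over all 52 lists 37 of 1290 measured genes were called, beside 1.69% of all genes, and a single call is not read as a result about its list. In 19 of 41 functional lists no member was called. Those were, among others, the 21 clock genes, the 41 cytosolic ribosomal protein genes, the 69 oxidative phosphorylation subunits (median -0.15), the 39 glycolysis and lactate genes and the 35 proteasome and ubiquitin genes. A p that misses the threshold does not show that these levels were equal.

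The same genes were followed through the ages between. Relative to the P14 mean, the median of the 228 genes called higher was 0.18 to 0.43 in the 4 P21 arrays, 0.22 to 0.59 at P28, and 1.02 to 1.57 at P56, where the calls were made. At P35 the arrays fell into pairs: replicates 1 and 2 stood at 0.01 and 0.02, and replicates 3 and 4 at 0.8 and 0.82. The pairs also differed in Xist (11.12 and 10.68 against 7.03 and 6.83), in Eif2s3y (4.4 and 4.41 against 7.37 and 7.25) and in the arrays' 90th percentile (8.82 and 8.79 against 9.19 and 9.14). At P28 replicates 1 and 2 stood at 0.59 and 0.5, and replicates 3 and 4 at 0.22 and 0.36. Their Xist was 7.08 and 7.22 against 10.83 and 11.07, and their 90th percentiles 9.26 and 9.26 against 8.92 and 8.97. At P56 the arrays with high Xist stood higher, at 1.42 and 1.57 against 1.02 and 1.19. Their 90th percentiles were also higher, at 9.42 and 9.49 against 9.13 and 9.27. The part of these array differences in the result was not tested. The 68 genes called lower had medians of -0.59 to -0.23 at P21, -0.98 to -0.8 at P28, -1.05 to -0.76 at P35 and -1.4 to -1.11 at P56. All genes together stayed between -0.12 and 0.03. By their age means, 24 of the 228 higher genes had passed the midpoint between P14 and P56 at P21, 63 at P28 and 71 at P35, against 21, 47 and 41 of the 68 lower genes. By arrays the order varied: a larger share of the higher than of the lower genes was past the midpoint in P21 replicate 2 (31.6% against 20.6%) and in P35 replicates 3 (64.9% against 60.3%) and 4 (65.4% against 60.3%). No test was made of this order.

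**Figure D4:**
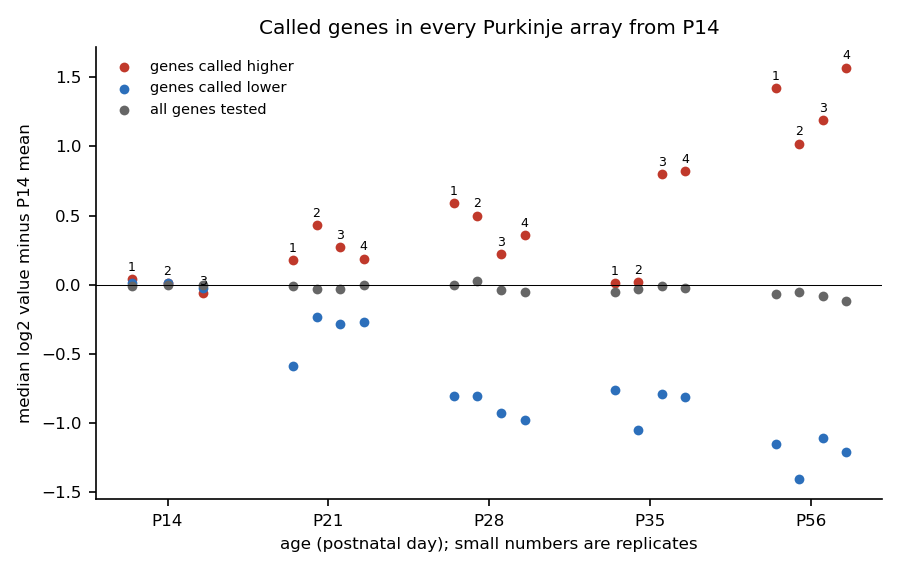
For each Purkinje array from P14 on (horizontal axis, age), the median over the called higher genes (red), called lower genes (blue) and all genes (grey) of the log2 value minus the gene's P14 mean (vertical axis). The differences that chose the genes are those of P14 and P56, the other ages entering only the variances, the filter and the choice of probe set. P35 replicates 1 and 2 lie at 0.01 and 0.02 for the higher genes while replicates 3 and 4 lie at 0.8 and 0.82.

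The P21 and P35 arrays did not enter the P56 minus P14 differences, though they shared in the fit's variances, the filter and the choice of probe set. From P21 to P35 the 228 higher genes had a median difference of 0.15 and 61.0% of them were positive, against 0.01 and 51.5% of all genes. The 68 lower genes had a median of -0.38 and 77.9% of them were negative, against 48.5% of all genes. By the same call rule 60 genes (0.343% of all) changed in this interval, 12 upward (0.0687%) and 48 downward (0.275%), and among the 296 genes these were 7 upward and 1 downward of the higher and 5 downward of the lower. The count of 60 was 12 without P21 replicate 2 and 122 without P21 replicate 1. For the higher genes the pairs of P35 arrays (0.01 and 0.02 against 0.8 and 0.82) differed by more than the median of 0.15. For the lower genes they did not separate, at -0.76 and -1.05 against -0.79 and -0.81.

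Single steps called 11 genes from P14 to P21 (0.0629%), 108 from P21 to P28 (0.618%), 67 from P28 to P35 (0.383%) and 498 from P35 to P56 (2.85%), the last with 448 upward (2.56%). Leaving out 1 array moved these counts to 4 to 17, 44 to 257, 13 to 151 and 213 to 841. Without P14 replicates 1, 2 or 3 in turn the first count was 4, and without P21 replicate 1 it was 17. The second was 44 without P21 replicate 3 and 257 without P21 replicate 1, the third 13 without P35 replicate 3 and 151 without P35 replicate 1, and the last 213 without P56 replicate 4 and 841 without P35 replicate 4. Successive steps share the arrays between them.

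Gpr176 rose within the first step, from a mean of 7.86 at P14 to 12.06 at P21 (4.2, SE 0.37), and stood at 9.76, 11.08 and 10.26 at P28, P35 and P56. Cpne8 rose from 5.44 to 8.89 in the same step (3.45, SE 0.61) and read 9.4, 6.53 and 8.36 afterwards. Zic1, a transcription factor of granule cells and interneurons, rose from 4.72 to 6.88 and stood at 5.22 at P56. Its P21 arrays read 6.71, 8.69, 5.73 and 6.42, and the glial gene Gja1 read 5.04, 9.06, 6.1 and 8.18 in them, whose part in the result was not tested. Iah1 (-1.80), the sterol regulator Insig1 (-1.48) and Dct (-1.18) fell in this step, so the decrease of Dct from 9.35 to 8.17 preceded its later mean of 7.47.

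The step from P21 to P28 held the increases of Sgpp2, from 8.64 to 10.51, and of Kcng4, from 7.69 to 9.5, and at P35 and P56 the means were 10.42 and 10.58 for Sgpp2 and 9.44 and 9.73 for Kcng4. Pdxdc1 rose by 1.87 in this step and was lower again at P56, at 7.71. Lnx1 (-2.70), Fxyd7 (-2.47) and Mpped2 (-2.44) fell most. From P28 to P35 Hspa1b (2.57), the G protein subunit gene Gng4 (2.44) and Bscl2 (2.01) rose, while Cpne8 (-2.87), the growth factor binding protein gene Igfbp6 (-1.85) and the polyamine enzyme gene Sat1 (-1.57) fell.

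The step from P35 to P56 held the increases of Slc45a3 (3.34, SE 0.38), Zfp383 (3.22, SE 0.46) and Gcnt2 (3.19, SE 0.48). None of these genes had an age mean at P28 or P35 above its P14 mean. Slc45a3, for example, had means of 7.23, 7.00, 5.69, 6.63 and 9.98 from P14 through P56. Single arrays did exceed the P14 means, which were 7.23 for Slc45a3, 7.78 for Zfp383 and 8.39 for Gcnt2. In P35 replicate 4 the 3 genes read 7.85, 8.46 and 8.55. Clstn1 (-2.39), the exchange factor gene Rasgrf1 (-2.22) and Bscl2 (-2.02) fell most, and Clstn1 was at 8.54 at P14, 7.02 at P28, 8.44 at P35 and 6.05 at P56, so its course was not monotonic.

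The libraries labelled Purkinje at P3 and P7 went against that label. Their 16 Purkinje markers averaged 6.73 to 8.27 per array at P3 and 8.65 to 9.31 at P7, against 12.28 to 12.38 at P14, and their 12 interneuron markers 9.72 to 9.78 and 9.07 to 10.07, against 5.8 to 6.0. Kit read 9.37 to 9.78 at P3 and 8.81 to 9.66 at P7, and Calb1 read 4.46 in P3 replicate 3. Differences between these arrays and those of P14 therefore cannot be told apart from a change in the cells sampled, and the values follow as levels of the libraries so labelled. Tmsb10 had means of 13.44 at P3 and 13.52 at P7, and 11.03 at P14, 9.31 at P21 and 7.75 at P28. Its P28 arrays ranged from 5.34 to 10.15. At P3, P7 and P14 the means were 13.54, 13.35 and 11.28 for Basp1, 12.38, 12.23 and 7.75 for Dpysl3, 11.57, 11.66 and 7.59 for Tubb2b and 12.28, 12.19 and 9.6 for Rtn3. In the P14 libraries labelled Stellate/Basket, Tmsb10 stood at 13.13, Basp1 at 12.61 and Dpysl3 at 10.81. Other genes that fell after P14 had their highest mean there: Nell2 stood at 6.98 and 6.79 at P3 and P7, 9.37 at P14 and 6.96 at P56, and Hdc at 5.70, 6.76, 10.20 and 8.61. Among the genes that rose after P14, Fat3 stood at 10.84 at P3, 6.93 at P14 and 8.32 at P56, and at 10.29 in the P14 libraries labelled Stellate/Basket. Ddo stood at 8.52, 5.04 and 7.39, and at 7.96 in those libraries. Kcng4 had means of 6.07, 7.95 and 9.73 at P3, P14 and P56, and Cntn3 of 6.89, 8.2 and 10.19.

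**Figure D5:**
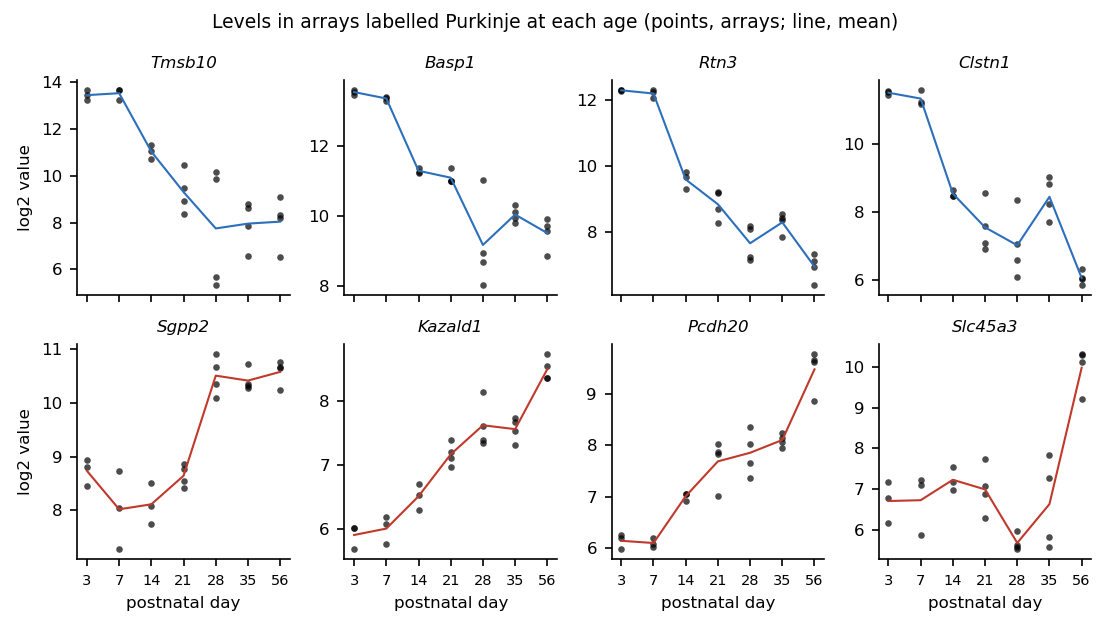
Log2 values (vertical axis) of 8 genes in arrays labelled Purkinje at each postnatal day sampled (horizontal axis), with points for arrays and lines for age means. Ages are evenly spaced on the axis. The P3 and P7 arrays carried interneuron markers (Kit 8.81 to 9.78, against 5.1 to 6.09 at P14), so age and the cells sampled cannot be told apart there. Tmsb10 and Basp1 are above 13 there and below 13 at each later age, with their lowest means at P28 (7.75 and 9.16). Clstn1 is back at 8.44 at P35 before 6.05 at P56. Sgpp2 rises between P21 and P28, and Slc45a3 is high at P56 alone among the ages.

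41 genes, 30 higher and 11 lower, were called in the same direction under each of 24 alternative settings of the P14 to P56 comparison, which excluded those with other ages or lower thresholds. This set was formed after its values were seen and is a description. It held 8 of the 15 leading increases (Slc45a3, Zfp383, Pcdh20, Sgpp2, Gpr176, Pdzrn3, Plppr5 and Pcdhb3) and 6 of the 15 leading decreases (Rtn3, Clstn1, Tsks, Dct, Basp1 and Fam71e1). It also held Dnmt3a, Me1, Gabra4, Kcng4, Cntn3, Fat3 and Smarca1. Tmsb10, Itgav, Etl4 and Cdh11 were not in it. Kazald1, an insulin-like growth factor binding protein relative, had the smallest adjusted p of the set (1.98, SE 0.16, limma adjusted p = 3.56e-09), with means of 6.52, 7.17, 7.62, 7.56 and 8.50 from P14 on.

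Other probe sets of the same gene often gave smaller differences. Of the 30 leading genes, 22 had more than 1 probe set, in 12 of them every other probe set had the same sign, in 5 another probe set also reached a difference of 1 in the same direction, and in 1 another reached 1 in the opposite direction. That gene was Nell2, whose other probe set differed by 1.0. The other probe set of Cdh11 differed by 1.78, and the 4 others of Tmsb10 by -2.28 to -0.12. The 5 other probe sets of Etl4 lay between -0.16 and 0.57, the 4 of Itgav between -0.38 and 0.20, and the single other one of Rtn3 at 0.07. The single other one of Slc45a3 differed by -0.15 and that of Pdzrn3 by -0.13. The 3 others of Ddo lay between -0.18 and -0.11, and the 7 of Gcnt2 between -0.54 and 0.09. The differences of Etl4, Itgav, Rtn3, Slc45a3, Pdzrn3, Ddo and Gcnt2, among others, are therefore those of 1 probe set each. Rtn3, Slc45a3 and Pdzrn3 are among the 41 genes above all the same.

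On the X chromosome lay 19 of the 228 genes called higher (8.33%), 1 of the 68 called lower (1.47%) and 571 of all genes (3.27%). Without P56 replicates 1 and 4 it was 7 of 82 genes called higher (8.54%). The X-linked helicase gene Ddx3x, which escapes X inactivation, read 10.32, 10.27 and 10.09 at P14 and 11.38, 11.12, 10.85 and 11.65 at P56 (1.02, SE 0.21). Its P56 arrays with low Xist, replicates 2 and 3, were also above all P14 arrays.

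The change from P14 to P56 was also compared with that of the samples labelled Stellate/Basket, the interneurons of the molecular layer, as an interaction over 4 arrays at P14 and 2 at P56. These P56 libraries went against their label: the 16 Purkinje markers averaged 7.48 to 8.44 in the P14 arrays labelled Stellate/Basket and 11.72 and 10.18 in the P56 arrays, and the 12 interneuron markers 10.31 to 10.86 and then 6.65 and 6.76. Calb1 read 13.24 and 12.13 and Kit 5.35 and 6.86 in them. A change with age in interneurons and a change in the cells sampled cannot be told apart there. A direction drawn from these libraries therefore describes the libraries labelled Stellate/Basket. The sex-linked genes differed too. Xist read 12.77 to 12.88 in the P14 arrays labelled Stellate/Basket, against 6.47 to 6.59 in Purkinje cells at P14. In the P56 arrays labelled Stellate/Basket it read 11.42 and 11.79. Eif2s3y had a P14 mean of 4.21 in the libraries labelled Stellate/Basket and of 8.76 in Purkinje cells. The part of these differences in the interaction was not tested.

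By this interaction, 3507 genes (20.1%) differed in their change, 2277 (13%) with the more positive change in Purkinje cells and 1230 (7.04%) with the more negative. The Purkinje arrays of P14 and P56 enter both this test and the comparison above, so the values of the leading genes are given side by side. Sgpp2 rose by 2.47 in Purkinje cells and had -2.87 in the libraries labelled Stellate/Basket, an interaction of 5.34 (SE 0.44). Dpysl3 fell by 1.66 in Purkinje cells and had -4.77 there, an interaction of 3.11 (SE 0.52). Itgav had 3.30 and 3.99 and Tmsb10 -2.99 and -2.30, with interactions of -0.69 (SE 0.67) and -0.70 (SE 1.15) that did not pass the test.

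The largest interactions belonged to 6 genes that moved more in the libraries labelled Stellate/Basket than in Purkinje cells. Prdm8, an interneuron marker of the lists, had Purkinje means of 5.10 and 5.46 and 11.94 and 5.14 in the libraries labelled Stellate/Basket (interaction 7.16, SE 0.24). Cdc42ep3 (interaction 6.46) had a Purkinje difference of 0.77 and Id4 (-6.46) of -0.9, each without overlap of the arrays but not past the test (limma adjusted p = 0.327 and 0.246). Clmn (-5.96) had Purkinje means of 11.56 and 11.57, and Tmem255a (-5.95) a difference of 0.34. Hs6st2 (6.2), a heparan sulfate sulfotransferase gene, was called in Purkinje cells, with an increase of 1.58 (SE 0.3) from 8.12 to 8.57 at P14 to 9.65 to 10.01 at P56.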

How the data were processed

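Expression in hand-sorted cells was measured on Affymetrix MOE430.2 arrays after 2 rounds of RNA amplification, per the labels' protocols. The deposited log2 values were used as the authors gave them. GCRMA and R 2.9.1 appear in the submitters' processing notes without a role or order. Of 45101 probe sets, 34958 carried 1 gene symbol in the platform annotation, 932 several and 9211 none. The brightest probe set, by its mean in the 40 columns, stood for a gene, and genes above 5 in at least 3 arrays were kept, 17478 of 18194.

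Differences were fitted with limma 3.58.1 in R 4.3.3 as 12 means of cell type and age over 40 columns. 2 Stellate/Basket columns were left out, since each equals the mean of 2 others within 1e-08. Benjamini-Hochberg adjustment ran across the 17478 genes within a comparison. The number of arrays limits the precision, and no depth applies. On simulated data 97% of genes changed by 1.5, 94% of those changed by 2 and 100% of those changed by 3 on the log2 scale were recovered between P14 and P56, with 3 false calls among 17478 genes. The simulated noise was independent between genes and arrays, around the same mean in all groups. Differences shared by the genes of an array were not simulated, so these rates are not error rates of the real comparison.

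Named were the 15 largest called differences in each direction with arrays that do not overlap, up to 4 called members of each of 52 gene lists (or the 2 largest where fewer than 2 were called), the 3 largest in each direction of each step and of the interaction, and 5 check genes; clone-like symbols were counted and not named. Of 1438 listed genes 1290 were measured, and the others were not analysed here. The comparison, the lists and the tests were chosen with earlier results of these data known. Promoter sequences are RefSeq's, GRCm38.p6. Figures were drawn with matplotlib 3.10.9 in Python 3.11.15.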

Additional observations from a re-analysis of the deposited data

Results flagged for a closer look

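In 6 of 133 named genes 1 of the 4 P56 arrays stood apart from the others by Dixon's criterion, where chance alone flags about 1 in 20. In P56 replicate 3, Cpne8 read 5.63, the other P56 arrays reaching 9.53, and Grm2 read 6.58 against a lowest value of 6.42. In P56 replicate 2, Pcdh20 read 8.87 against up to 9.78, Hcn3 7.56 against a lowest value of 6.73, and the neurotrophin receptor gene Ntrk3 8.72 against up to 9.67. In P56 replicate 4, Nsmf read 9.31 against up to 11.16. Pcdh20 and Cpne8 were above every P14 array in each of these P56 arrays, which the choice of the leading genes required.

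For 17 of the 30 leading genes the change from P14 to P56 differed between Purkinje cells and the libraries labelled Stellate/Basket by limma's interaction, against 20.1% of all genes. The 30 were chosen for their Purkinje change, which is part of the interaction, so nothing is read from that count, and the P56 libraries labelled Stellate/Basket carried Purkinje markers. Among genes higher at P56 in Purkinje cells, the interactions were 5.34 for Sgpp2, 3.23 for Plppr5, 2.07 for Pdzrn3, 2.04 for Ddo, 2.02 for Pcdhb3, 1.95 for Cdh11 and 1.61 for Slc45a3. Among genes lower at P56, they were -3.23 for Fam71e1, -2.74 for Iah1, -2.68 for Fxyd7, -2.37 for Tubb2b, -2.29 for Gp1bb, -2.13 for Nell2, -2.07 for Dct and -1.66 for Rtn3. Dpysl3 and Stx1a had interactions of 3.11 and 1.15, with larger decreases in the libraries labelled Stellate/Basket.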

How the results depend on the processing

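Against 296 genes called between P14 and P56, the mean of a gene's probe sets gave 137, array weights 461, an adjusted p under 0.01 gave 175, no minimum difference 2464, a minimum of 0.6 gave 1068, P35 in place of P56 gave 107, and leaving out the P56 arrays with high Xist 141; single arrays left out gave 186 to 413. Replicate numbers did not pair the samples (correlations of same-numbered deviations 0.173, -0.181 and 0.116), and the replicate block gave 272. The filter, the arrays in the fit, the variance model, centring, quantile normalization, the covariates and P21 as the first age kept the count within 1.5 times. The genes behind a similar count differed. With P21 as the first age 132 of 267 were among the 296, with the 90th percentile covariate 176 of 216, and with quantile normalization 202 of 229. The filter, the arrays in the fit, the variance model, centring and the Xist covariate shared 261 to 296. Of 57 called genes named as leading genes or list members, over 28 alternatives, 1394 values kept sign and call, 191 lost the call and 10 changed sign. The alternatives with no minimum difference or a minimum of 0.6 reuse the same fit, so every call was bound to be kept there. The sign changed with P35 in place of P56 for Slc45a3 (-0.60), Zfp383 (-0.70), Gcnt2 (-0.85), Cntnap5a (-0.16), Kcnip1 (-0.66) and Scg5 (-0.75), with P21 in place of P14 for Cpne8 (-0.53), Gpr176 (-1.80) and Iah1 (0.20), and with the brightest probe set of the 7 arrays for Nell2 (1.0).

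For the steps, the mean of probe sets gave 5 genes from P14 to P21, 54 from P21 to P28, 36 from P28 to P35 and 259 from P35 to P56. Array weights gave 62, 456 and 329 for the first 3 of these, 196 from P21 to P35 and 2017 for the interaction, and quantile normalization gave 298 from P35 to P56. Leaving out 1 array gave 4 to 17, 44 to 257, 13 to 151 and 213 to 841 for the 4 steps, 12 to 122 from P21 to P35 and 2747 to 4846 for the interaction. With the replicate block the steps gave 9, 104, 62 and 482. Causes were not tested. Genes near the bottom of the scale, such as Ddo and Pdzrn3 at P14, have folds that depend on the background of the arrays.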
